A study of Mus musculus with 12 samples.

Results

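The genes of sterol synthesis and sterol efflux were followed in mouse osteoclasts, large cells with many nuclei that dissolve bone, through 35 named genes out of the 55414 gene IDs counted in each library. The members were chosen as 27 genes of the synthesis arm, which the SREBP transcription factors drive, and 8 genes of the efflux arm, which the LXR nuclear receptors drive. The rule takes genes by name and pathway, and uptake is represented by Mylip, the ubiquitin ligase that removes lipoprotein receptors from the cell surface. RNA was measured by sequencing in 12 cultures, in 4 groups of 3. The groups were wild type with Hes1 loxP, Notch2 mutant with Hes1 loxP, wild type with the Hes1 deletion and Notch2 mutant with the Hes1 deletion. Hes1 loxP denotes a Hes1 gene flanked by loxP sites, so per the labels all 4 groups carry either the loxP or the deleted form of Hes1. Notch2 is a membrane receptor whose cleaved tail acts in the nucleus, and Hes1 is a repressor of transcription among its classical targets. The sources used here do not name the Notch2 mutation or say how Hes1 was deleted. All cells came from the bone marrow of male mice of 7 to 8 weeks. They were grown with M-CSF at 30 ng/ml and then, from day 3, with M-CSF and RANKL for 4 days. Samples are labelled as biological replicates, and p-values measure the spread between these cultures.

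Animal cells make cholesterol from acetyl-CoA by the mevalonate pathway and a second series of enzymes that turns squalene into sterols. When sterols run low in the endoplasmic reticulum, Scap carries the SREBP precursors to the Golgi, where they are cut into active factors that switch on nearly every enzyme of the pathway; Insig proteins hold Scap back when sterols are plentiful. When oxysterols accumulate, LXR paired with an RXR partner switches on the exporters Abca1 and Abcg1. In osteoclasts the mevalonate pathway is known as the target of the nitrogen-containing bisphosphonates, which block the enzyme encoded by Fdps, and membrane cholesterol supports fusion and survival of the cells.

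The start regions of 4 members are shown because they hold motifs known from SREBP and LXR targets and because the values of these genes are described below. Each is the 250 bases before the annotated start in the RefSeq table (GRCm38.p6), 5′ to 3′ on the strand of the gene. Capitals mark the SREBP motif TCACNCCAC, the NF-Y box CCAAT, and matches to 2 copies of AGGTCA spaced by 4 bases, the LXR element DR4, with up to 3 mismatches. Both strands were read, so CCAAT on the other strand appears as ATTGG.
Hmgcs1, chr13:119690101-119690350, plus strand: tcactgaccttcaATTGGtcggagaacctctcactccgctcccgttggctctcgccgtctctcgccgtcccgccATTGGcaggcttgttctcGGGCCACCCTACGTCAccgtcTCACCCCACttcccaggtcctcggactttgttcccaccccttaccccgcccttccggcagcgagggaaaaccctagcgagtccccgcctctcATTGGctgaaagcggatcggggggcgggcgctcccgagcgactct
Mvd, chr8:122443423-122443672, minus strand: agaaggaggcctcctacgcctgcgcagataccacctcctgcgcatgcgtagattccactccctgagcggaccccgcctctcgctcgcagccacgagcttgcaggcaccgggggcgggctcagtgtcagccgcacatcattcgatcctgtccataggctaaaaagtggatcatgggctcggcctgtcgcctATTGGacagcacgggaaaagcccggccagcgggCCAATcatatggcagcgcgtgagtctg
Fasn, chr11:120824548-120824797, minus strand: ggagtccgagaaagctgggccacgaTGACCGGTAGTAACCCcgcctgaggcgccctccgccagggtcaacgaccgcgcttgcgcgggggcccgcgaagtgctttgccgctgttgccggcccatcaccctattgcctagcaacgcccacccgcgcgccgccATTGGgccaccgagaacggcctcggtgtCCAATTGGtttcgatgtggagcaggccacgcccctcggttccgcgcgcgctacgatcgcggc
Abca1, chr4:53159896-53160145, minus strand: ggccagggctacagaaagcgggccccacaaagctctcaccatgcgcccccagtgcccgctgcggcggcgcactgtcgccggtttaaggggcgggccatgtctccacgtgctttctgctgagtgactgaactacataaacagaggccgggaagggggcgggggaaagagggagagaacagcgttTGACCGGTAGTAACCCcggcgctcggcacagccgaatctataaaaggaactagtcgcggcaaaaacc
Hmgcs1 held the SREBP motif, which starts at position -137 from the annotated start, together with 3 NF-Y boxes. Mvd held 2 NF-Y boxes, and Fasn held 3, at -90, -62 and -59, the last 2 overlapping. Abca1 held no NF-Y box. Abca1 at -67 and Fasn at -225 carried the same run of 16 letters as their DR4 match, both read on the other strand. The RefSeq table gave a start region for 27 of the 35 members. Among these, the SREBP motif was found in Hmgcs1 alone, against 1.22% of all genes in the table (1.05% of its 32851 start regions). The NF-Y box was in 19 of 21 synthesis genes and 2 of 6 efflux genes, against 37.5% of all genes in the table. The GC box GGGCGG was in 19 of 21 synthesis genes and 4 of 6 efflux genes, against 35.4% of all genes. A DR4 match with at most 2 mismatches was found only in Dhcr7, against 2.96% of genes. It lay in a start region of Dhcr7 whose 250 bases are all annotated exon of that gene. With 3 mismatches, a looser setting added after the data were seen, 9 of 27 members held one against 20.9% of genes. These are matches of letters in a short window and not measured binding.

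All 35 members had counts in every library. In TPM, which divides by exon length and so lets genes be compared, the mean over the 12 libraries was highest for Npc2, the lysosomal cholesterol carrier, at 867 ± 38.8 (SD, n = 12). Scd2, a fatty acid desaturase, followed at 144 ± 27.0 TPM, Srebf2, the SREBP that favours sterol genes, at 118 ± 4.41 TPM and Insig1 at 92.7 ± 10.0 TPM. The LXR pair was also well expressed, with Nr1h2 (LXR beta) at 90.6 ± 4.75 TPM, Nr1h3 (LXR alpha) at 63.9 ± 8.26 TPM and their partner Rxrb at 79.3 ± 6.52 TPM. Among the 18 enzymes of sterol synthesis, Hmgcs1, which condenses acetyl units into HMG-CoA, was highest at 69.7 ± 5.81 TPM. The lowest members were Tm7sf2 at 3.09 ± 0.45 TPM, Scd1 at 2.19 ± 0.80 TPM and Fdps at 1.37 ± 0.55 TPM. The value of Fdps is uncertain, because 1124 bases of its exons overlap another annotated gene on the same strand, Gm43738, and reads lying in both may have been counted for neither. The sources used here do not give the strand setting of the counting, so overlapping antisense genes were listed as well. Fdft1 shares 774 exon bases with Ctsb on the other strand, and Hmgcs1 shares 557 with Gm48342. Scd1 and Fdps also varied most between libraries, with coefficients of variation of 36.7% and 40.0%. Srebf2 and Npc1 varied least, at 3.75% each.

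**Figure D1:**
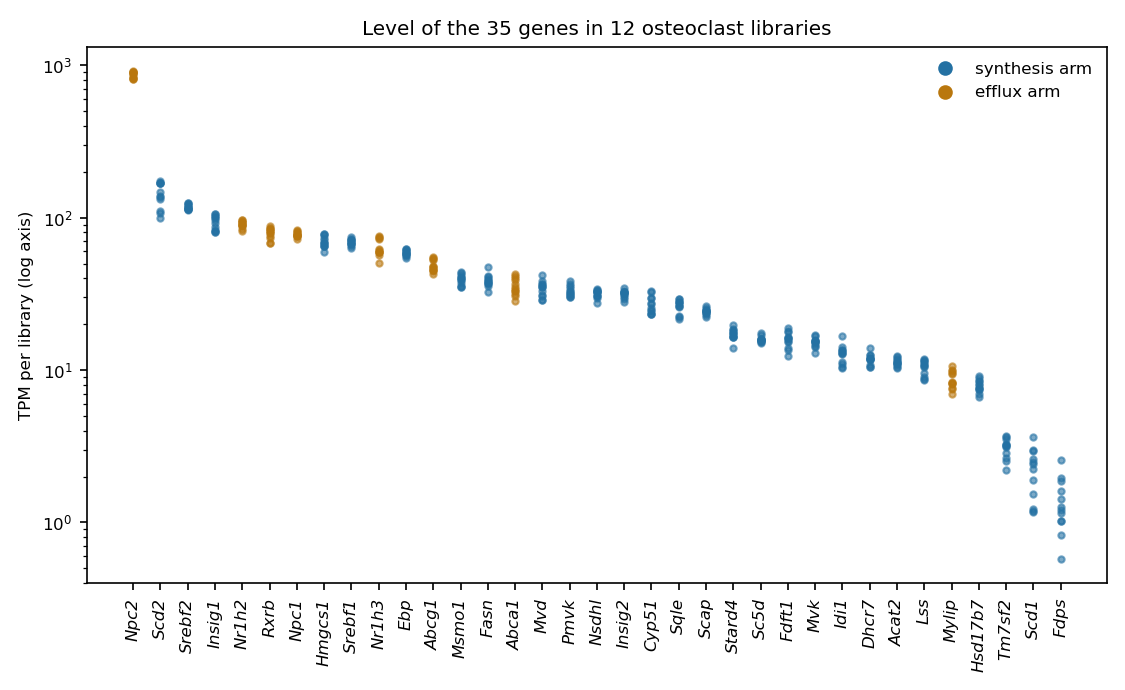
TPM of each of the 35 genes (log axis) in the 12 libraries, 1 point per library, ordered by the mean, with the synthesis arm in blue and the efflux arm in ochre. Npc2 lies above every other gene, and Tm7sf2, Scd1 and Fdps lie at the bottom, with Scd1 and Fdps spread the widest.

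Library depth, as counts on genes, was 13832368 to 19293772, and all 35 members passed the filter on low counts, among 13403 genes tested. Hes1 was scarce, with summed counts of 23 (wild type) and 7 (Notch2 mutant) in the Hes1 loxP groups and of 2 in each group with the deletion. Notch2 was at 143 to 175 CPM (the count scaled to the depth of its library) in every library, and since the mutation is not named, its count does not check the label. All 10 osteoclast markers were detected in every library, from Calcr at a mean of 27.4 CPM to Mmp9 at 21317 CPM. In Notch2 mutant cells the osteoclast list had a median log2 fold change of 0.19 averaged over both Hes1 states, with 6 of 10 genes higher past the threshold, where 1.89% of all genes tested passed in either direction. Of the 10 macrophage genes, 4 were lower past the threshold and 7 in all were below 0, while of the 3 above 0 none passed and 2 had an unadjusted p under 0.05. Collagen and other stromal genes were present at low levels. Their summed level was 243 to 285 CPM (wild type) and 112 to 234 CPM (Notch2 mutant) with Hes1 loxP, and 318 to 333 CPM (wild type) and 197 to 285 CPM (Notch2 mutant) with the deletion. Of 15 stromal genes, 2 were at 0 in some libraries and none was at 0 throughout. The 10 neutrophil genes summed to 278 to 362 CPM in wild type Hes1 loxP cells and to 199 to 285 CPM in the other groups. In bulk RNA, fewer cells of a type and less RNA per cell cannot be told apart.

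The effect of the Notch2 mutation was read in cells with Hes1 loxP, in cells with the Hes1 deletion, and as the average of both. Averaged over both Hes1 states, the mutant cells had higher Cyp51 (1.23-fold), Hmgcs1 (1.14-fold) and Rxrb (1.14-fold), and Abca1 dropped by 16.1%. These 4 of the 35 members passed an adjusted p of 0.05 (edgeR quasi-likelihood test, Benjamini-Hochberg over all genes tested), in a comparison where 1.89% of all genes tested passed. With Hes1 loxP, Rxrb alone passed, where 0.776% of all genes did. With the Hes1 deletion, no member passed, where 0.0149% of all genes did, and 6 members had an unadjusted p under 0.05. The interaction of mutation and deletion called no gene at all (0.0% of genes tested), so no difference in the Notch2 effect between the Hes1 states was shown for any member. Without wild type Hes1 deletion replicate 3 it called 12 genes, none of them a member. Of all genes tested, 3.78% had an unadjusted p under 0.05 for the interaction, and 2 of 35 members did.

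Below that threshold, the synthesis arm leaned to higher values in the mutant. Its median log2 fold change was 0.14 with Hes1 loxP, with 22 of 27 genes above 0, and 0.07 with the Hes1 deletion, with 18 of 27 above 0. The median over all genes tested was 0.00 in both. With Hes1 loxP, 9 synthesis genes (33.3%) had an unadjusted p under 0.05, all with higher values in the mutant, where 14.2% of all genes tested had such a p in either direction. With the deletion, 4 did (14.8%), where 6.69% of all genes did. The 2 comparisons use separate libraries, and 16 of the 27 genes (59.3%) were above 0 in both, against 32.0% of all genes. For the 18 synthesis enzymes alone, 13 were above 0 in both. These genes varied together, with wild type Hes1 loxP replicate 1 the highest of its group for 22 of the 27. Such counts of genes are therefore not counts of independent observations. The members were also chosen with earlier results of these data known. The efflux arm had medians of 0.03 and 0.05, with 4 and 6 of 8 genes above 0.

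**Figure D2:**
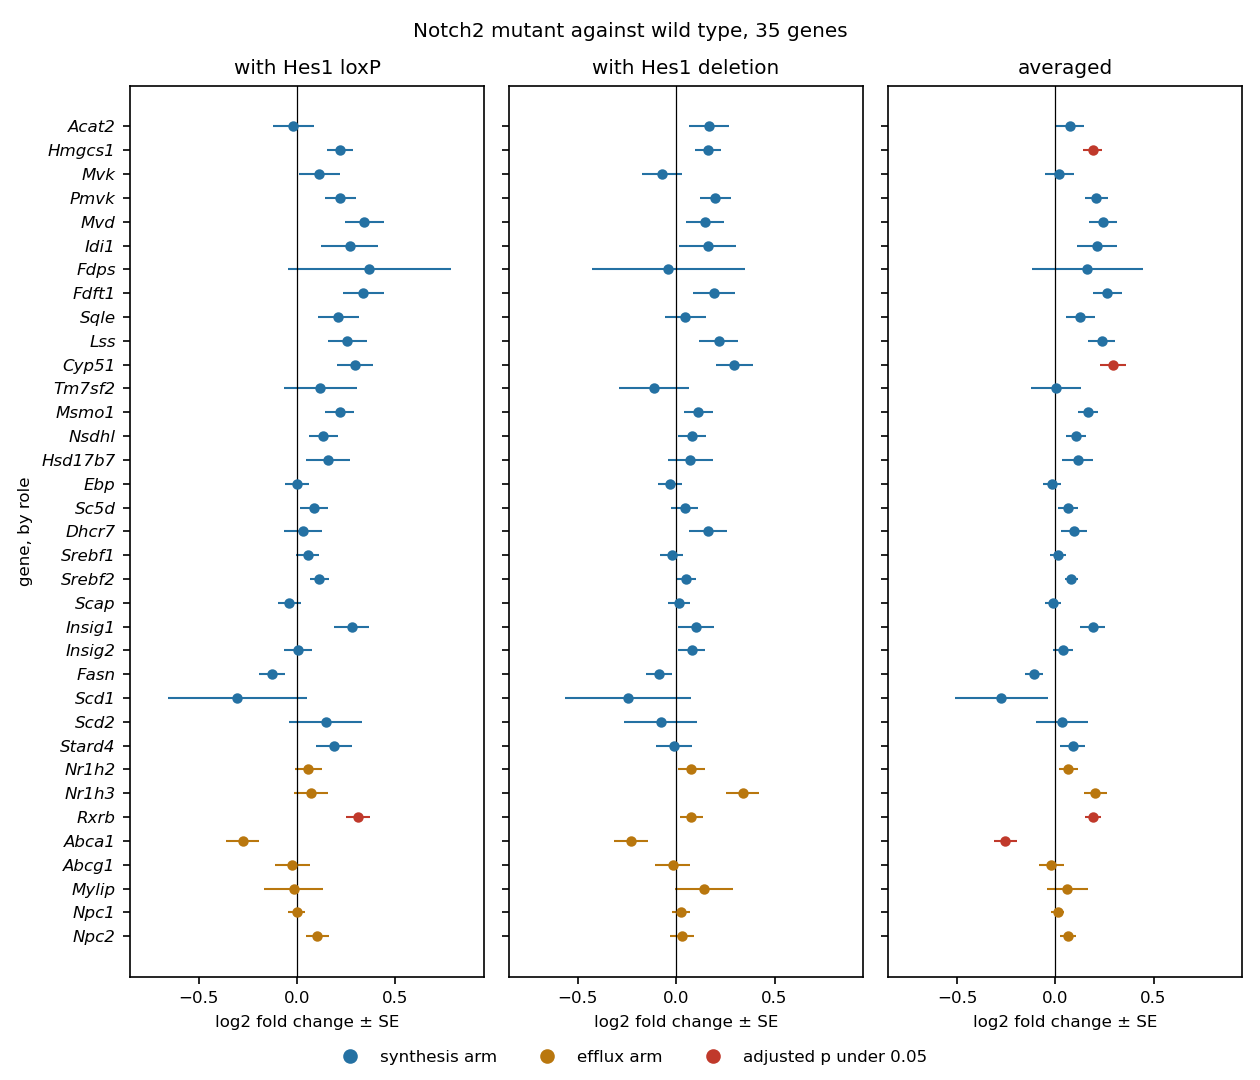
Log2 fold change of the Notch2 mutant against wild type for the 35 genes, with bars of 1 SE, in Hes1 loxP cells, in Hes1 deletion cells and averaged over both, from the edgeR fit of 12 libraries. Red points passed an adjusted p of 0.05: Rxrb with Hes1 loxP, and Hmgcs1, Cyp51, Rxrb and Abca1 in the average.

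Summed over the 18 synthesis enzymes, the level was 514, 449 and 452 CPM in the wild type Hes1 loxP libraries and 517, 531 and 536 CPM in the Notch2 mutant ones. It was 500.0, 485 and 461 CPM in wild type and 507, 506 and 548 CPM in Notch2 mutant Hes1 deletion libraries. In both Hes1 states every mutant library lay above every wild type library, with wild type Hes1 loxP replicate 1 just under the lowest mutant one. That library was the highest of its group for 22 of the 27 synthesis genes. Without it, the synthesis median with Hes1 loxP was 0.22 in place of 0.14. This was the top of the range with single libraries left out, 0.12 to 0.22.

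Same-numbered libraries of the 2 Hes1 loxP groups deviated together, though the labels do not state a pairing. The comparison was therefore also fitted on those 6 libraries with the replicate number as a block. The fit was added after the data were seen, and its calls rest on that assumed pairing. This fit called 1019 of 13022 genes, 7.83%, and 10 of the 35 members. Cyp51, Fdft1, Mvd, Hmgcs1, Msmo1, Lss, Insig1 and Rxrb were higher, and Abca1 and Fasn lower. The same 6 libraries without the block called Rxrb alone, and a block in the fit of all 12 libraries also called Rxrb alone. Fold changes hardly moved, so that Mvd was at 0.33 ± 0.09 (log2 ± SE) with the block and 0.34 ± 0.10 without it.

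In the mevalonate segment, which builds isoprenoid units from acetyl-CoA, the median log2 fold change was 0.22 with Hes1 loxP and 0.16 with the deletion, and 1 of the 7 genes passed in the average. Hmgcs1 was at 98.1, 88.9 and 81.9 CPM in wild type and 94.0, 106 and 106 CPM in Notch2 mutant Hes1 loxP libraries. It was at 93.6, 90.4 and 88.2 CPM in wild type and 94.0, 101 and 107 CPM in mutant Hes1 deletion libraries. The groups overlapped with Hes1 loxP, through wild type replicate 1 and mutant replicate 1, and were just apart with the deletion. Averaged over both states, Hmgcs1 rose by a log2 fold change of 0.19 ± 0.05 (SE, n = 6 per genotype), with an edgeR adjusted p of 0.0499 that lies at the threshold. Pmvk, which phosphorylates phosphomevalonate, was at 16.1, 15.3 and 15.6 CPM in wild type and 17.1, 19.5 and 17.2 CPM in mutant Hes1 loxP libraries, and at 15.5, 16.3 and 16.3 CPM in wild type and 18.4, 17.6 and 18.8 CPM in mutant Hes1 deletion libraries. All 6 mutant libraries lay above all 6 wild type libraries, though the share of all genes that separate this way is not given here. The averaged log2 fold change of Pmvk, 0.21 ± 0.06 (SE), nevertheless missed the threshold, at an edgeR adjusted p of 0.0643. Mvd, which decarboxylates the product to isopentenyl diphosphate, ranged from 15.9 to 17.0 CPM in wild type and from 19.6 to 20.8 CPM in mutant Hes1 loxP libraries. Its groups did not overlap there, and its log2 fold change of 0.34 ± 0.10 had an edgeR adjusted p of 0.111. In Hes1 deletion cells the ranges of Mvd overlapped, at 17.2 to 21.2 CPM in wild type and 19.3 to 23.4 CPM in mutant cells. Idi1, the isopentenyl diphosphate isomerase, was at 0.27 ± 0.14 and 0.16 ± 0.14 (log2 ± SE) in the 2 states. Acat2, a thiolase that joins acetyl units, and Mvk, the mevalonate kinase, had averaged values of 0.07 ± 0.07 and 0.02 ± 0.07. Fdps, with as few as 12 counts in a library, was at 0.16 ± 0.28.

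In the segment from squalene to cholesterol, 10 of 11 genes were above 0 with Hes1 loxP and 9 of 11 with the deletion, and Cyp51 passed in the average. Cyp51, the lanosterol demethylase, was at 36.0, 32.2 and 30.8 CPM in wild type and 39.4, 42.7 and 36.9 CPM in Notch2 mutant Hes1 loxP libraries, which did not overlap. It was at 33.5, 30.9 and 30.3 CPM in wild type and 39.2, 32.6 and 43.4 CPM in mutant Hes1 deletion libraries, where mutant replicate 2 fell among the wild type values. The log2 fold change was 0.29 ± 0.09 (SE) with Hes1 loxP and 0.30 ± 0.09 with the deletion. Averaged, it was 0.30 ± 0.07, a 1.23-fold rise with an edgeR adjusted p of 0.0296. Fdft1, the squalene synthase, was at 21.05, 15.7 and 17.8 CPM in wild type and 23.9, 20.4 and 23.0 CPM in mutant Hes1 loxP libraries, and at 19.2, 19.6 and 17.0 CPM in wild type and 22.6, 20.1 and 20.6 CPM in mutant Hes1 deletion libraries. Wild type Hes1 loxP replicate 1 overlapped the mutant values, and the averaged log2 fold change of 0.26 ± 0.07 had an edgeR adjusted p of 0.0696. Lss, which closes the sterol rings, and Msmo1, a sterol methyl oxidase, had averaged values of 0.24 ± 0.07 and 0.16 ± 0.05 with edgeR adjusted p of 0.0838 and 0.103. Sqle, the squalene epoxidase, was at 0.21 ± 0.10 with Hes1 loxP and 0.05 ± 0.10 with the deletion. Late enzymes lay closer to 0 in the average, with Dhcr7 at 0.09 ± 0.07, Sc5d at 0.06 ± 0.05 and Ebp at -0.02 ± 0.04. Tm7sf2 was at 0.00 ± 0.13 and shares 532 exon bases with Vps51 on the same strand.

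Of the 5 genes that sense sterols and process SREBP, none passed in any of the 7 comparisons of the 12-library fit, and Insig1 passed in the 6-library fit with the replicate block. Srebf2 was at 259, 238 and 247 CPM in wild type and 269.7, 251 and 271 CPM in Notch2 mutant Hes1 loxP libraries, and at 246, 252 and 244 CPM in wild type and 265, 245 and 251 CPM in mutant Hes1 deletion libraries. The groups overlapped in both states, and the averaged log2 fold change was 0.08 ± 0.04 with an edgeR adjusted p of 0.250. Srebf1, which favours fatty acid genes, was at 120.1, 107 and 118 CPM in wild type and 126, 110.3 and 115 CPM in mutant Hes1 loxP libraries, and at 119.7, 122 and 114 CPM in wild type and 120.0, 113 and 114 CPM in mutant Hes1 deletion libraries. Its averaged log2 fold change was 0.01 ± 0.04. Insig1 is both a brake on SREBP and one of its targets. It was at 95.6, 73.7 and 74.2 CPM in wild type and 98.2, 92.8 and 98.0 CPM in mutant Hes1 loxP libraries, and at 80.5, 85.5 and 75.0 CPM in wild type and 88.9, 75.9 and 91.6 CPM in mutant Hes1 deletion libraries. With Hes1 loxP, wild type replicate 1 reached the mutant values, and every mutant library lay above the wild type library of the same number. The log2 fold change there was 0.28 ± 0.09 with an edgeR adjusted p of 0.153. With the replicate block it was 0.28 ± 0.06 with an edgeR adjusted p of 0.00224. Without the block and without wild type Hes1 loxP replicate 1 it was 0.40 and passed. With single libraries left out, it ranged from 0.21 to 0.40 and did not pass in 11 such fits. Scap and Insig2 had averaged values of -0.01 ± 0.04 and 0.04 ± 0.05.

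The 4 further SREBP targets went both ways with Hes1 loxP, with 2 above and 2 below 0, and all 4 were below 0 with the deletion; none passed in the 12-library fit, and their difference from the sterol enzymes was not tested. Fasn, the fatty acid synthase, was at 128, 133 and 123.1 CPM in wild type and 118, 120.4 and 107 CPM in Notch2 mutant Hes1 loxP libraries, and at 129, 126 and 154 CPM in wild type and 124, 135 and 122 CPM in mutant Hes1 deletion libraries. The Hes1 loxP groups did not overlap, with lower values in the mutant. The averaged log2 fold change was -0.11 ± 0.05 with an edgeR adjusted p of 0.248, and Fasn passed only in the 6-library fit with the replicate block. Stard4, which moves cholesterol through the cytosol, was at 31.4, 27.4 and 23.4 CPM in wild type and 33.0, 30.6 and 28.1 CPM in mutant Hes1 loxP libraries, and at 30.1, 29.4 and 27.3 CPM in wild type and 29.2, 27.4 and 28.9 CPM in mutant Hes1 deletion libraries. These ranges overlapped in both states, and the log2 fold changes were 0.19 ± 0.09 with Hes1 loxP, close to the median of the mevalonate segment, and -0.01 ± 0.09 with the deletion. The desaturase Scd2 was at 0.14 ± 0.19 with Hes1 loxP and -0.08 ± 0.19 with the deletion, and Scd1 at -0.30 ± 0.35 and -0.24 ± 0.32. In the fit with the replicate block, Scd2 was at 0.15 ± 0.06 and Stard4 at 0.18 ± 0.07, with edgeR adjusted p of 0.113 and 0.133.

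**Figure D3:**
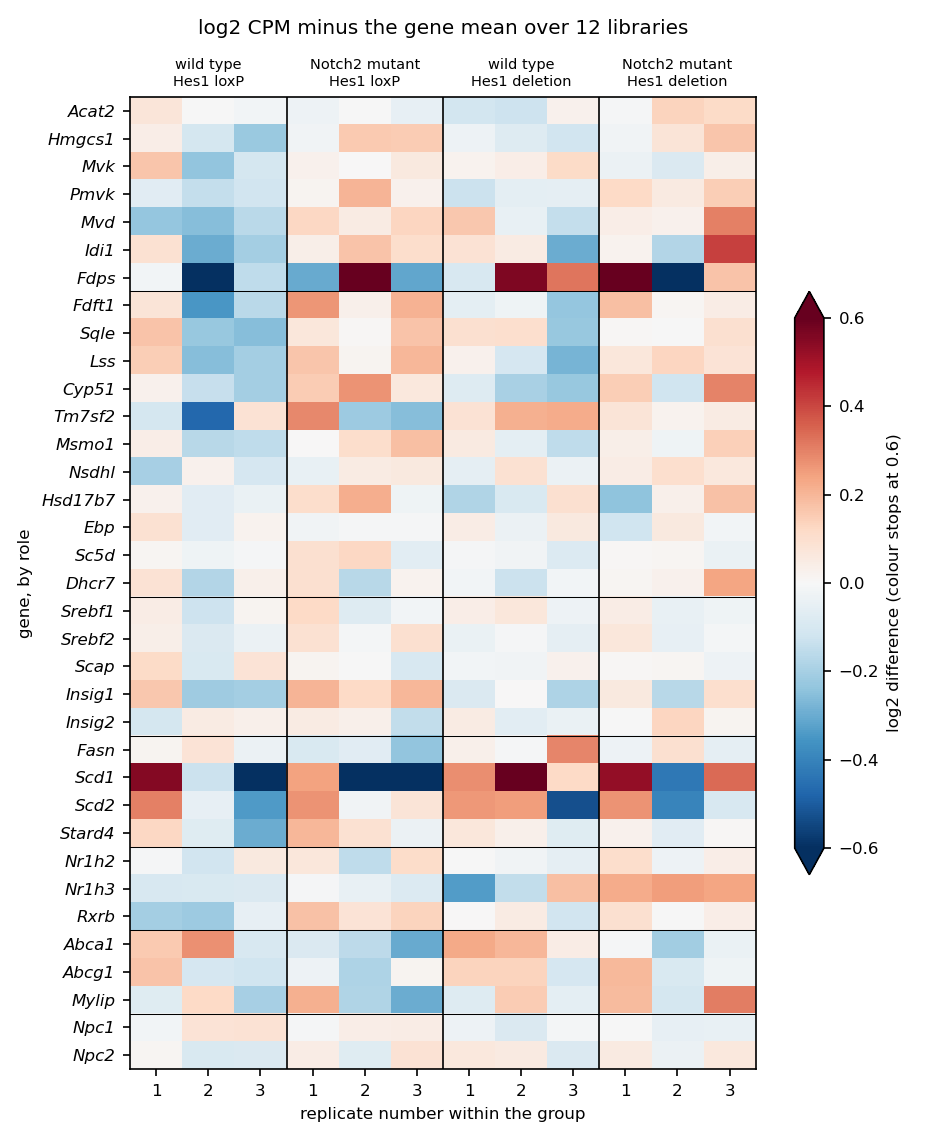
Log2 CPM of each gene (rows, by role) in each of the 12 libraries (columns, by group), minus the mean of that gene over all libraries, with red above and blue below the mean and colour limits at 0.6. Wild type Hes1 loxP replicate 1 lies above replicates 2 and 3 for 22 of the 27 synthesis genes. For some of these, such as Pmvk, it is still below the mean of the gene. Abca1 is blue or near white in all 6 mutant libraries.

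Of the LXR receptors and their partner, Rxrb rose in the mutant with Hes1 loxP and in the average. Rxrb was at 81.5, 80.9 and 90.9 CPM in wild type and 106, 99.5 and 103 CPM in Notch2 mutant Hes1 loxP libraries, with every mutant library above every wild type one. The log2 fold change was 0.31 ± 0.06 (SE, n = 3 per group), a 1.24-fold rise with an edgeR adjusted p of 0.0193. In Hes1 deletion libraries Rxrb was at 94.2, 97.2 and 86.8 CPM in wild type and 100.5, 93.9 and 96.6 CPM in mutant cells, which overlapped, and the log2 fold change was 0.08 ± 0.06. The interaction was -0.23 ± 0.08 with an unadjusted p of 0.0128 and an edgeR adjusted p of 0.999, so the 2 states were not shown to differ. Averaged, Rxrb rose by 0.19 ± 0.04 with an edgeR adjusted p of 0.0257. Nr1h3 was at 44.6, 44.7 and 45.0 CPM in wild type and 47.5, 46.2 and 45.1 CPM in mutant Hes1 loxP libraries, and at 37.8, 43.1 and 54.0 CPM in wild type and 55.6, 56.8 and 56.3 CPM in mutant Hes1 deletion libraries. The groups did not overlap in either state, though by only a narrow gap with Hes1 loxP, and in the wild type Hes1 deletion group replicate 3 lay close to the mutant values. With the deletion, the log2 fold change of Nr1h3 was 0.34 ± 0.08 with an unadjusted p of 0.000767 and an edgeR adjusted p of 0.349. Leaving out that replicate gave 0.48, which passed. With single libraries left out, the value ranged from 0.23 to 0.48 and did not pass in 11 such fits. The interaction was 0.27 ± 0.12 with an edgeR adjusted p of 0.999. Nr1h2 was at 0.06 ± 0.07 and 0.08 ± 0.07 in the 2 states.

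Of the LXR targets, Abca1, which loads cholesterol onto apolipoproteins at the cell surface, fell in the mutant in the average. It was at 122, 132 and 102 CPM in wild type and 103, 98.0 and 88.6 CPM in Notch2 mutant Hes1 loxP libraries, and at 128, 125 and 113 CPM in wild type and 109, 94.5 and 106 CPM in mutant Hes1 deletion libraries. With Hes1 loxP the groups met at a single pair of libraries, wild type replicate 3 and mutant replicate 1. With the deletion they did not overlap. The log2 fold change was -0.28 ± 0.08 with Hes1 loxP and -0.23 ± 0.08 with the deletion, and in the average Abca1 fell by 0.25 ± 0.06 (log2), with an edgeR adjusted p of 0.0360. Abcg1, the partner exporter to high-density lipoprotein, was at -0.02 ± 0.06 in the average, with an edgeR adjusted p of 0.916. The difference between these 2 genes was not tested. Mylip was low in all libraries. It was at 7.93, 9.07 and 7.29 CPM in wild type and 9.69, 7.37 and 6.80 CPM in mutant Hes1 loxP libraries, and at 7.93, 9.29 and 8.02 CPM in wild type and 9.54, 7.76 and 10.3 CPM in mutant Hes1 deletion libraries. Its averaged log2 fold change was 0.06 ± 0.11.

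Neither of the lysosomal proteins that release cholesterol from endocytosed lipoprotein passed in any comparison. Npc2 was at 1421, 1322 and 1326 CPM in wild type and 1455, 1339 and 1498 CPM in Notch2 mutant Hes1 loxP libraries, and at 1471, 1463 and 1327 CPM in wild type and 1464, 1374 and 1474 CPM in mutant Hes1 deletion libraries. Its averaged log2 fold change was 0.07 ± 0.04, with an edgeR adjusted p of 0.467. Npc1, the membrane protein that receives cholesterol from Npc2, was at 259.9, 279 and 279.5 CPM in wild type and 262, 271 and 271 CPM in mutant Hes1 loxP libraries, and at 257, 247 and 261 CPM in wild type and 263, 254 and 255 CPM in mutant Hes1 deletion libraries. Its averaged log2 fold change for the mutation was 0.01 ± 0.03.

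**Figure D4:**
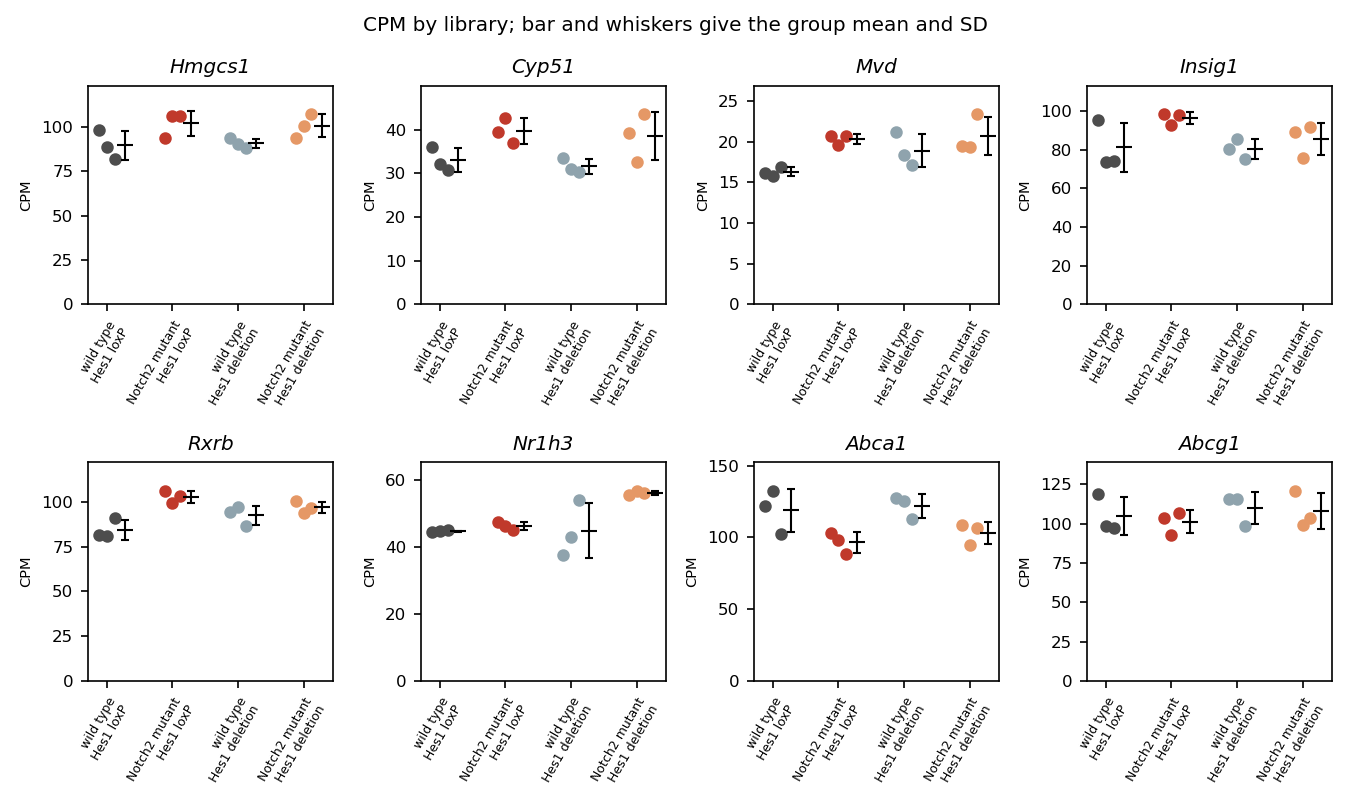
CPM of 8 members in each library, by group, with a bar at the group mean and whiskers of 1 SD (n = 3); axes start at 0. In Hes1 loxP cells Rxrb and Mvd separate, and Cyp51 and Nr1h3 do so by narrow gaps. In Hes1 deletion cells Nr1h3 and Abca1 separate, and Hmgcs1 does so by a narrow gap. The mean of Abca1 is lower in the mutant in both.

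Stromal genes were lower in the mutant libraries, as given above, with 2 of 14 tested passing and a median of -0.61 (log2) in the average. The mean log2 CPM of that list was 2.00 to 2.27 in wild type and 0.84 to 1.76 in mutant Hes1 loxP libraries. With the deletion it was 2.37 to 2.50 in wild type and 1.65 to 2.03 in mutant libraries. It did not overlap between genotypes in either state, so a fit with it cannot tell stromal signal from genotype. When that mean entered the fit as a covariate, no member passed in any Notch2 comparison, and hardly any gene of the whole table did. Over all genes tested, 1 gene passed in place of 104 with Hes1 loxP, 0 in place of 2 with the deletion and 0 in place of 253 in the average. With the covariate the synthesis median was 0.13 in place of 0.14 with Hes1 loxP and 0.10 in place of 0.09 in the average. The efflux median was 0.10 in place of 0.03 with Hes1 loxP and 0.15 in place of 0.06 in the average, with 7 of 8 genes above 0 in each. The averaged log2 fold change of Cyp51 went from 0.30 ± 0.07 to 0.15 ± 0.10 (SE), that of Hmgcs1 from 0.19 to 0.10 and that of Pmvk from 0.21 to 0.10. Those of Rxrb (0.24 ± 0.07), Abca1 (-0.24 ± 0.10) and Fdft1 (0.36 ± 0.12) were as large or nearly as large as before, with wider errors. The part of the osteoclast and macrophage markers in these results was not tested. In Hes1 loxP cells Rxrb was at 0.36 ± 0.08 with the covariate, and without it Rxrb no longer passed after leaving out wild type Hes1 loxP replicate 1 or 2 or Notch2 mutant Hes1 loxP replicate 1 or 3. The 4 calls in the average also depended on single libraries. Of the 12 fits with 1 library left out, Cyp51, Abca1 and Rxrb each missed the threshold in 7, and Hmgcs1 in 8. No member passed in the average without wild type Hes1 loxP replicate 2 or without Notch2 mutant Hes1 deletion replicate 3. Without any filter on low counts, 8 members passed with Hes1 loxP, 3 with the deletion and 10 in the average, while calls over the whole table went from 104 to 657, from 2 to 138 and from 253 to 853 genes. More genes are tested in that setting, and their share that passed is not given here, so these member counts have no background beside them.

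Deletion of Hes1 changed no member past the threshold. In wild type cells 0.0373% of all genes tested passed, in Notch2 mutant cells 0.0373%, and averaged over both genotypes 0.0821%, and the members were at 0 of 35 in each. Without wild type Hes1 deletion replicate 3, the comparison in wild type cells called 26 genes in place of 5, again with no member among them. At an unadjusted p under 0.05 there were 1, 2 and 2 members, where 5.93%, 4.76% and 6.89% of all genes had such a p. The synthesis medians were 0.02 in wild type and -0.05 in mutant cells, and the first changed sign in 3 of 20 alternatives, with a range of -0.01 to 0.06. Npc1 had the smallest unadjusted p in the average, 0.00451, at -0.10 ± 0.03 (log2 ± SE) with an edgeR adjusted p of 0.429. In mutant cells, Nr1h3 was at 0.25 ± 0.08 and Insig1 at -0.20 ± 0.09 with the deletion. Their edgeR adjusted p were 0.816 and 0.977. Scd1 was at 0.52 ± 0.24 in the average, with an edgeR adjusted p of 0.704. Among the 10 osteoclast markers, Ctsk alone passed for the deletion. It was lower by a log2 fold change of -0.99 ± 0.07 in wild type and -1.11 ± 0.07 in mutant cells. The edgeR adjusted p were 4.84e-07 and 8.89e-08, and the cause of this drop was not tested.

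Other genes of the same pathways, on 2 lists drawn up beside the members, gave a mixed account. None of 22 further genes of sterol and fatty acid synthesis passed in a Notch2 comparison, and their median log2 fold change was 0.04 with Hes1 loxP and 0.00 with the deletion. In this list Erlin2, which helps degrade sterol-regulated proteins, was at 0.11 ± 0.04 in the average, and Fads1, a desaturase, at -0.19 ± 0.06, with edgeR adjusted p of 0.104 and 0.106. Of 17 tested genes of efflux, storage and uptake, 2 passed with Hes1 loxP (11.8%, against 0.776% of all genes) and 2 in the average (11.8%, against 1.89% of all genes), all lower in the mutant, and none passed with the deletion. In both comparisons they were Lrp1 and Arl4c. Lrp1, an endocytic receptor of many ligands, was at 794, 959 and 745 CPM in wild type and 663, 659.8 and 588 CPM in Notch2 mutant Hes1 loxP libraries, and at 829, 748 and 818 CPM in wild type and 666, 697 and 664 CPM in mutant Hes1 deletion libraries. No mutant library reached a wild type one, though the share of all genes that separate this way is not given here. The averaged log2 fold change of Lrp1 was -0.30 ± 0.05 with an edgeR adjusted p of 0.00828. Arl4c, a small GTPase known as an LXR target, was at 38.1, 37.1 and 37.7 CPM in wild type and 30.7, 26.4 and 25.8 CPM in mutant Hes1 loxP libraries, and at 34.7, 37.3 and 32.0 CPM in wild type and 32.5, 31.4 and 29.1 CPM in mutant Hes1 deletion libraries. It fell by 0.29 ± 0.06 (log2) in the average, with an edgeR adjusted p of 0.0131, and its Hes1 deletion groups overlapped.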

How the data were processed

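Each of the 12 deposited tables holds whole-number counts per gene for 1 library, not normalized, for 55414 gene IDs and 5 summary rows. The authors' tools were HISAT2, SAMtools, Picard, HTSeq and DESeq2 with build GRCm38, per the submitters' processing notes. The sources used here give no versions, annotation release or strand setting. Stranded mRNA libraries were pooled and read from both ends at 75 bp, per the labels' protocols. The summary rows, 15.8 to 19.0% of each table, were left out.

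Names and positions came from GENCODE M21 by ID (52133 of the 55414 matched), and start regions from RefSeq (GRCm38.p6). Genes were tested in R 4.3.3 with edgeR 4.0.16, a two-sided quasi-likelihood F-test on 1 fit of all 12 libraries with TMM scaling and filterByExpr (minimum count 10, minimum total 15). Benjamini-Hochberg adjustment ran over the 13403 genes tested in each of 7 comparisons, with a threshold of 0.05. SE was derived from the F statistic. CPM is over counts assigned to genes, and TPM uses the union of exons. The number of libraries, 3 per group, limits the precision.

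The members and all lists were chosen with earlier results of these data known. Values in every library are given for members past the threshold, for the 2 members of each role with the smallest unadjusted p in the averaged Notch2 comparison, and for Srebf1, Srebf2, Insig1, Abca1, Nr1h3 and Rxrb. Genes of the other pathway lists were named where they passed, or by smallest p. Where libraries of 2 groups are said not to overlap, the share of all genes that did so is not given here.

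Same-numbered libraries of the 2 Hes1 loxP groups deviated together (correlations of 0.142 to 0.278 over 10554 genes). Their replicate numbers were treated as pairing, which the labels do not state. Between these 2 groups, libraries with different numbers were at -0.227 to 0.004. Deviations were taken from the mean of the 3 libraries of a group. Positive values for the same number therefore push those for different numbers down, and the latter are not separate evidence of a pairing. No other pair of groups had every same-numbered correlation above 0.1, so this pair was picked by its outcome. Elsewhere same-numbered libraries fell to -0.250. Wild type Hes1 deletion replicate 3 and Notch2 mutant Hes1 deletion replicate 2, with different numbers, reached 0.318. Replicates differed by more than sampling noise (chi-square per gene 2.40 to 8.41). When the Notch2 comparison with Hes1 loxP was simulated (13218 genes, 200 changed), the fit recovered 90% of 1.5-fold and 100% of 2-fold changes, with 15 false calls among 205. The simulation changed only genes with a mean count of at least 50 and drew the libraries independently. It therefore does not measure how well smaller changes, such as those of the members, were found. Alternatives were DESeq2 1.42.0, limma-voom (limma 3.58.1), RLE scaling, a filter at a mean count of 50 or none, a replicate block, a stromal covariate, a fit of the compared groups only, and each library left out.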

Additional observations from a re-analysis of the deposited data

How the results depend on the processing

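With Hes1 loxP, the Notch2 comparison called 1 member, but 0 with the stromal covariate (1 gene in place of 104), 8 with no filter on low counts (657 genes) and 10 in the 6-library fit with the replicate block (1019 genes). It called 0 to 2 with single libraries left out (26 to 289 genes). With the Hes1 deletion it called 0 members, 3 with no filter (138 genes in place of 2) and 0 to 1 with libraries left out. In the average it called 4 members, 0 with the stromal covariate (0 genes in place of 253), 10 with no filter (853 genes) and 0 to 5 with libraries left out (63 to 319 genes). DESeq2 called 242 genes with Hes1 loxP and 420 in the average, with 1 and 4 members. The replicate block in the 12-library fit called 1 and 4 members, with Fdft1 in place of Hmgcs1 in the average, and changed no other call of a member. Hmgcs1 also missed the threshold under RLE scaling and under a filter at a mean count of 50. The Hes1 comparisons and the interaction called 0 members under every alternative run, though with no filter they called 135 (in place of 5), 110 (in place of 5), 184 (in place of 11) and 63 (in place of 0) genes. With single libraries left out they called 3 to 26, 3 to 6, 6 to 16 and 0 to 12 genes, and the 26 and the 12 came without wild type Hes1 deletion replicate 3. The number of genes tested differed between settings, so these counts of genes are not shares. Pairs of member and comparison with an unadjusted p under 0.05 were refitted on largely the same libraries, so a change of sign was unlikely from the outset. For these 37 pairs, 0 of 734 values under alternatives changed sign. Arm medians near 0 did: for Hes1 deletion, the synthesis median in 3 of 20 alternatives in wild type and 3 of 19 in the average, and the efflux median in 2 of 20, 3 of 20 and 1 of 19 in wild type, mutant and average; for the interaction, the efflux median in 2 of 19. The cause of these shifts was not tested. Stromal signal, osteoclast markers and genotype move together, and Scd1, Fdps and Tm7sf2 are the members that low counts limit most.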
